A study of Mus musculus with 12 samples.

Results

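To examine where BMAL1 was bound near AP-1 motifs, regions that held both an E-box and an AP-1 motif were collected from BMAL1-ChIP-seq of mouse adult fibroblasts (MAFs), and they are called composite regions here. Overlapping peaks of the 6 BMAL1-ChIP-seq lists (1 bp or more) were joined into 16818 regions. Of these, 7452 were called in 2 or more libraries, and 524 of the 7452 held at least 1 CACGTG and at least 1 TGASTCA (S is C or G) between start and end in the mm10 sequence. The regions were thus chosen by the peak calls of all 6 libraries and by sequence, and every count of calls over them is a description.

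The series held 12 libraries: 3 control and 3 senescent BMAL1-ChIP-seq libraries, and 6 input libraries that were not analysed here. All came from primary wild-type MAFs, grown from ears of adult female C57BL/6J mice and cultured at 3% O2. Senescent cells received 20 Gy of X-rays and were cultured further, while the controls had a sham irradiation. Both groups were treated with 100 nM dexamethasone, a glucocorticoid that aligns the clocks of cultured cells, and were fixed 12 hours afterwards. Every sample had thus been exposed to a glucocorticoid and was taken at a single time after this treatment. The paper reported a longer Bmal1 period and a larger rise of BMAL1 protein in senescent cells. Circadian phase and BMAL1 amount may therefore differ between the groups at this time. The labels do not say whether replicates came from separate cultures or animals, so p-values measure the spread between these samples, which may be technical. Each library came as a list of peaks with a score and no reads, so depth is unknown, the cell type could not be checked against marker genes, and a region missing from a list was not called, which does not show that it was not bound. The lists held 2794 to 10601 peaks (control replicates 1, 2 and 3: 2794, 3349 and 10601 peaks; senescent replicates 1, 2 and 3: 4220, 9805 and 5053 peaks).

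BMAL1 (a bHLH-PAS protein) pairs with CLOCK and binds the E-box CACGTG, a palindrome, to drive the feedback loop of the circadian clock, in which its targets Per, Cry and Nr1d1 repress the pair or its genes. AP-1 is a dimer of FOS, JUN and related bZIP proteins that binds TGASTCA, follows MAP kinase signalling and marks many enhancers of fibroblasts and of senescent cells. A region that carries both motifs could be bound through either of them, and a peak list does not show which motif was occupied.

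The closest arrangement of both motifs was a fused element in which the last 2 bases of the E-box were the first 2 bases of the AP-1 motif. It was found in 34 of the 524 regions, and read from the E-box it was CACGTGACTCA in 24 and CACGTGAGTCA in 10 of them. Fused elements that were called in all 6 libraries are shown first, on the plus strand of GRCm38 (mm10), with capitals marking both motifs and small letters the flanks, since these carry the tightest pairing in the series.

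Fam53b, chr7:132724028-132724056: caagctaacCACGTGACTCAgagttctta
Ypel5, chr17:72836288-72836316: ttaagaagcTGACTCACGTGgatgctgtg
Hps1, chr19:42779965-42779993: cgggtaggaCACGTGACTCAgccacatga
Stk40, chr4:126102606-126102634: gcctgccttTGAGTCACGTGcctcctaga
Glb1, chr9:114401016-114401044: agctgcttcTGAGTCACGTGgcctacaga
Irf2bp2, chr8:126735563-126735591: caactgctcTGAGTCACGTGggctcgagg
Zzz3, chr3:152512678-152512706: caagactgaCACGTGAGTCAgaccacaac
Pfdn2, chr1:171346197-171346225: ctgcagagcCACGTGACTCAgactctgag

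The next set shows fused elements of regions called in all 3 senescent and 0 control libraries, and then the fused element of the region near Pak3, which was called in 3 control and 0 senescent libraries.

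Raet1d, chr10:22492416-22492444: cctgggaaaCACGTGACTCAgcctgggaa
Bfsp2, chr9:103434191-103434219: gtacaatgaTGACTCACGTGgtggtcaga
Smad5, chr13:56692179-56692207: ccccacctcCACGTGAGTCAgggagcccg
Ccnyl1, chr1:64690669-64690697: ggggctttgTGAGTCACGTGcctgggccg
Pak3, chrX:143502152-143502180: ggttggggaTGAGTCACGTGgctggtctt

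The flanks of the elements shown differed from each other, and the same 11 bases stood in regions of every kind of call. An element of the Slc2a12 region, not shown, had the same printed flank before the E-box as the Raet1d element when read on the other strand. Pairs that did not share bases are shown for comparison: both motifs abutting (Lnx1 and Rad51b, a gap of 0 bp), and gaps of 3, 7 and 10 bp in regions called in 3 senescent libraries and 0 control libraries (Apba2, Map3k13) or in all 6 (Dvl2).

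Lnx1, chr5:74654738-74654760: gcattTGAGTCACACGTGtgtgc
Rad51b, chr12:79354858-79354880: caagtTGAGTCACACGTGcttct
Apba2, chr7:64584042-64584067: agtgcCACGTGttcTGAGTCAtcgtg
Dvl2, chr11:70000497-70000526: taacgTGACTCAaggaagtCACGTGaagca
Map3k13, chr16:21901478-21901510: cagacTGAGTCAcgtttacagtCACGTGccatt

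The last set shows wider pairs of well-ranked regions, for the clock gene Nr1d1 (called in all 6 libraries), for Pnoc (called in 3 senescent and 0 control libraries) and for Boc (called in 2 control and 0 senescent libraries).

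Nr1d1, chr11:98773764-98773876: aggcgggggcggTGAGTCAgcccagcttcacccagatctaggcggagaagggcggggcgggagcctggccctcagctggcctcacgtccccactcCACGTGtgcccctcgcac
Pnoc, chr14:65451935-65452013: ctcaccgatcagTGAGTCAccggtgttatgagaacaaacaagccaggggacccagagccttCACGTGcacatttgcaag
Boc, chr16:44484576-44484660: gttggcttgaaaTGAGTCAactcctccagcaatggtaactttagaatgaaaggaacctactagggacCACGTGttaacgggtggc

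Composite regions made up 7.03% of the 7452 regions (95% Wilson interval 6.47 to 7.63, which covers counting error only, as do all such intervals here). Windows of the same widths placed 2000 bp to each side held both motifs in 0.685% of cases (0.564 to 0.830, 14901 windows). Of the other regions, 2019 held an E-box alone, 1137 held an AP-1 motif alone and 3772 held neither. Over the 7452 regions, which were chosen by their calls, an E-box did not go with more AP-1 motifs. Such a choice by calls cannot show how both motifs go together elsewhere in the genome. An AP-1 motif lay in 20.6% of regions with an E-box (19.1 to 22.2) and in 23.2% of regions without one (22.0 to 24.4). The same order was seen in distal regions, with 29.0% against 32.9%, and in regions of 300 to under 600 bp, with 20.3% against 25.1%. In promoter regions, whose best-ranked peak was centred within 1000 bp of a protein-coding start site, the values were 9.46% (7.86 to 11.3) with an E-box and 7.02% (5.94 to 8.27) without one, and these intervals overlapped.

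Most composite regions were simple. In 383 of 524 there was exactly 1 motif of each kind, 85 regions held 2 or more E-boxes and 73 held 2 or more AP-1 motifs. In all there were 653 E-boxes and 608 AP-1 motifs, of which 9.95% and 7.24% lay in repeats. The E-box was nearer to the centre of the best-ranked peak in 314 regions and the AP-1 motif in 210. Among regions called in all 6 libraries the E-box was nearer in 104 of 153, with a median distance of 57 bp against 128.5 bp for the AP-1 motif. Among senescent-only regions, called in 2 or 3 senescent and 0 control libraries, it was nearer in 84 of 156, with medians of 49 bp and 44 bp. Senescent-only regions were narrower, with a median width of 336.5 bp against 774 bp for regions called in all 6 libraries. The part of width in these distances was not tested. The lists hold no summits, so the centre of the peak stood in for the point of strongest signal.

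The region with most E-boxes lay at −24732 bp from Pomc, the precursor of ACTH and other peptides, where minus means upstream of the start site. It held 10 E-boxes and 1 AP-1 motif, 720 bp apart at their closest. The Nr1d1 region held 5 E-boxes and 3 AP-1 motifs. A region nearest to Slc2a12, a glucose transporter gene, held 5 E-boxes and 5 AP-1 motifs as 5 fused elements, and a region nearest to Raet1d, also on chromosome 10, held 3 fused elements. The regions lay at chr10:22568939-22569601 and chr10:22492157-22492695, and an element of each had the same flank before the E-box. The other 32 regions of this kind held 1 fused element each.

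The gap between the nearest E-box and AP-1 motif was short in many regions. No single length but the fused form stood out by number, and that form was also common in the genome, as given below. Its median was 80.5 bp (quartiles 34 and 178.25 bp), 61 regions had a gap of at most 10 bp, 185 of at most 50 bp, 312 of at most 100 bp and 11 of over 500 bp. The fused form was the most common gap with 34 regions, and the next gaps, 24, 32, 42 and 63 bp, had 6 regions each. In steps of 10 bp from 0 to 99 bp, each step held 23 to 33 regions, and each step from 100 to 199 bp held 8 to 18. Rearranged motifs with the same base content gave similar distances: from the E-box to ATGSCAT the median gap was 100 bp in 107 regions, and from ACCGGT to the AP-1 motif it was 79 bp in 37 regions. The gap from the E-box to GTASTAC was wider, with a median of 206.5 bp in 42 regions.

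**Figure D1:**
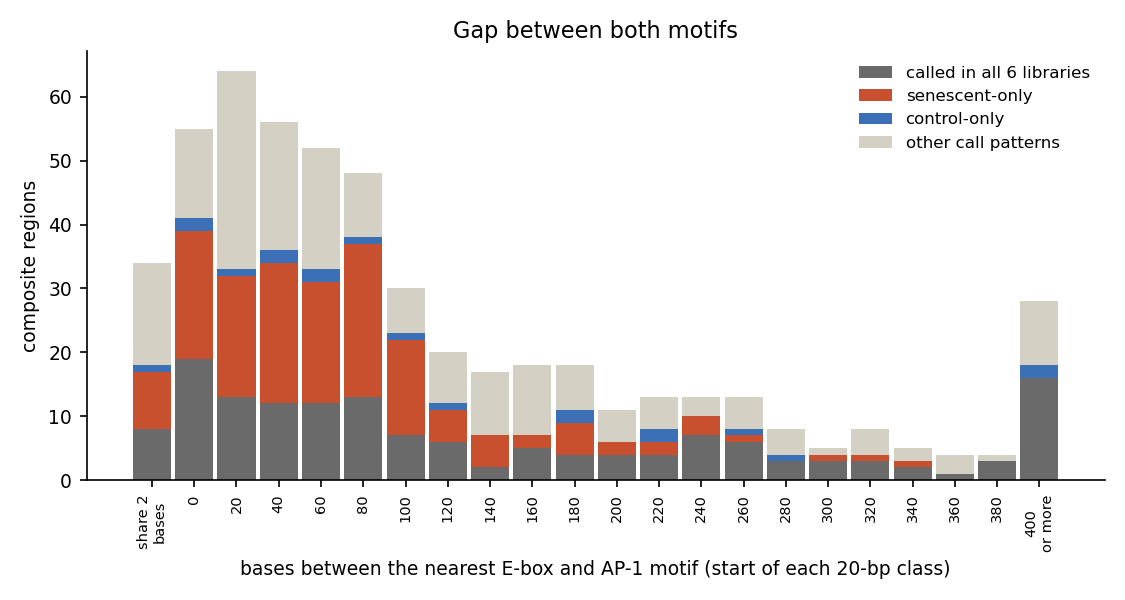
Number of composite regions (y axis) by the bases between the nearest E-box and AP-1 motif (x axis, 20-bp classes named by their first value, with the fused form at the left and 400 bp or more at the right), coloured by the libraries that called them. Regions were spread over all gaps up to 100 bp, and 34 regions held the fused form.

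The fused form was common in the genome itself. In the mm10 sequence 1123 pairs shared 2 bases, against 61 to 236 pairs (median 89) at each single gap from 0 to 100 bp. Of the 1123 fused pairs, 40 lay in a region called in 2 or more libraries, which is 3.56% (2.63 to 4.81). Among these 40, 5 lay in the Slc2a12 region and 3 in the Raet1d region, so they were not all separate places. Pairs with a gap of 0 to 10 bp were called in 3.45% of cases (2.49 to 4.76), those of 11 to 25 bp in 4.66% (3.61 to 5.99), those of 26 to 50 bp in 4.58% (3.77 to 5.55) and those of 51 to 100 bp in 3.34% (2.87 to 3.89). These intervals overlapped, so that the share of fused pairs called was not distinguishable from that of separate pairs at this number of sites. All pairs were called more often than sites taken without regard to a partner, at 1.21% of 267819 E-boxes (1.17 to 1.25) and 0.457% of 433145 AP-1 motifs (0.437 to 0.477). E-boxes followed on a side by the 2 bases that also follow in the fused form (A, then C or G) but with no AP-1 motif sharing bases were called in 2.18% of 51005 sites (2.05 to 2.31), and all other E-boxes less often (0.613% where A was followed by A or T, and 1.10% where no A followed). Sites in the genome were counted without regard to whether they lay in open chromatin, which was not measured here.

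**Figure D2:**
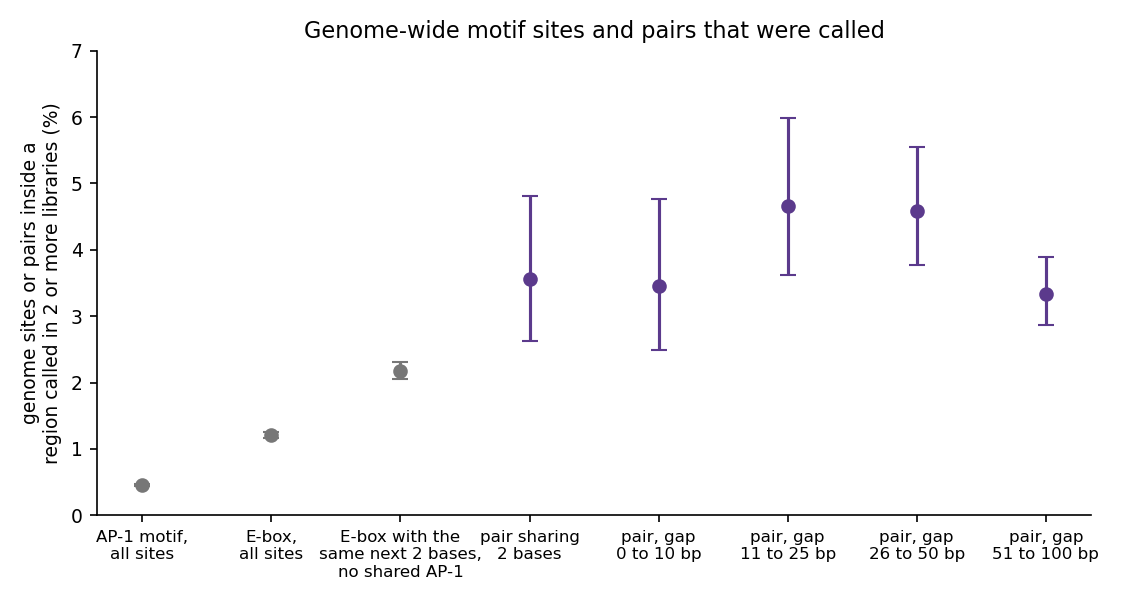
Percent of motif sites (grey) and of pairs of an E-box and an AP-1 motif (purple) in the mm10 genome that lay in a region called in 2 or more BMAL1-ChIP-seq libraries (y axis), by kind of site or gap (x axis). Points are shares and bars are 95% Wilson intervals; the 5 kinds of pair lay between 3.34% and 4.66%, above the 1.21% of all E-boxes.

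More composite regions were called in senescent than in control libraries. Of the 524 regions, 221, 227 and 348 were called in control replicates 1, 2 and 3, and 428, 483 and 431 in senescent replicates 1, 2 and 3. As shares these were 42.2%, 43.3% and 66.4% in control and 81.7%, 92.2% and 82.3% in senescent libraries, so the groups did not overlap (50.6% ± 13.7 and 85.4% ± 5.90, SD, n = 3 each). Over all 7452 regions the groups did overlap, at 32.4%, 38.6% and 75.03% against 50.6%, 79.7% and 57.2% (48.7% ± 23.0 and 62.5% ± 15.3, SD, n = 3 each). The share of composite regions minus the share of all regions of the same library was 9.80, 4.67 and −8.61 percentage points in control and 31.1, 12.5 and 25.02 in senescent libraries, again with no overlap. In regions with an E-box alone the groups did not overlap either (51.1% ± 16.2 in control libraries, 80.3% ± 8.48 in senescent ones, SD, n = 3 each), whereas regions with an AP-1 motif alone overlapped between groups (44.1% ± 23.0 and 57.2% ± 16.0, SD, n = 3 each). The longest list of each group, control replicate 3 and senescent replicate 2, also had the highest share in its group, and the part of list length in these shares was not tested; with all lists at the length of the shortest the difference between groups was 31.1 percentage points.

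**Figure D3:**
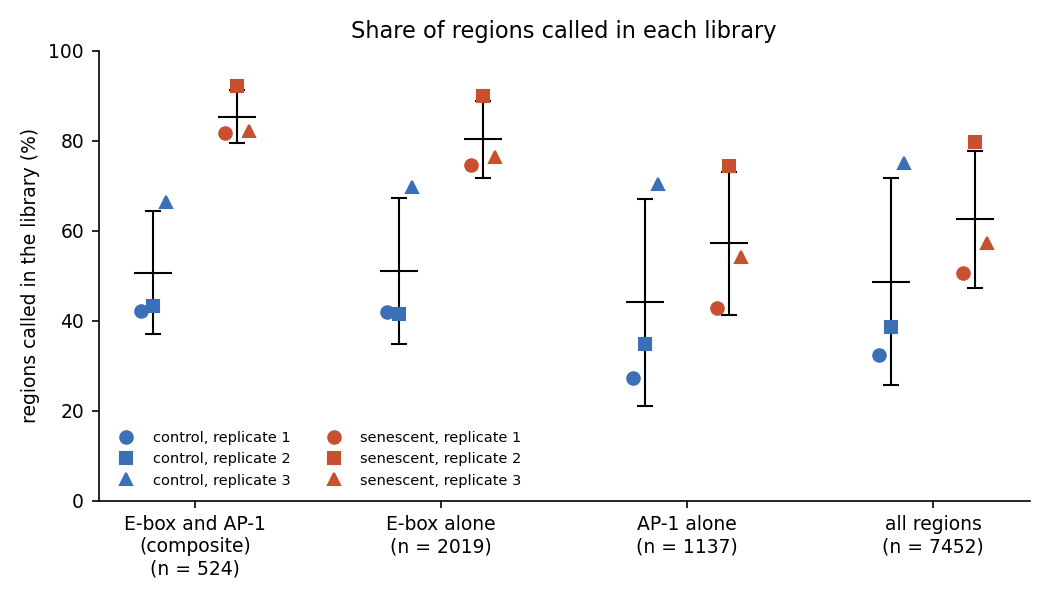
Share of regions called in each library (y axis, percent of the class) for composite regions, regions with an E-box alone, regions with an AP-1 motif alone and all regions called in 2 or more libraries. Symbols are single libraries and bars are the mean ± SD of 3 libraries; for composite regions the control libraries sat at 42.2 to 66.4% and the senescent libraries at 81.7 to 92.2%.

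A measure that did not depend on the rule of 2 libraries was the share of a library's own peaks that held both motifs. It was 4.44%, 3.79% and 2.53% in control and 8.15%, 4.41% and 6.77% in senescent libraries. The senescent values were higher on average (3.59% ± 0.972 and 6.44% ± 1.89, SD, n = 3 each), but senescent replicate 2 fell just below control replicate 1. The difference of 2.86 percentage points gave p = 0.2 in an exact two-sided permutation test, for which 0.1 is the smallest possible p with 3 libraries against 3. With all lists at the length of the shortest it was 5.38 points, and with peaks above the median score 4.25 (exact permutation p = 0.1 each). Over all alternatives it ran from 1.92 to 5.38 points, and the part of list length was not tested. With both motifs within 100 bp of the peak's centre the means were 2.39% ± 0.844 and 4.31% ± 1.26 (SD, n = 3 each, exact permutation p = 0.2).

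Sorted by calls, 156 composite regions were senescent-only, which is 29.8% (26.01 to 33.8), where 21.3% of all 7452 regions were. Control-only regions, called in 2 or 3 control and 0 senescent libraries, numbered 19, or 3.63% (2.33 to 5.59), where 13.2% of all regions were. All 6 libraries called 153, or 29.2% (25.5 to 33.2), where 14.8% of all regions were called in 6. In 95 regions (18.1%, background 8.43%) 3 senescent and 0 control libraries made a call, and in 9 regions (1.72%, background 3.56%) 3 control and 0 senescent libraries did. In total 299 regions (57.1%) had more senescent than control calls, where 43.5% of all regions did. More control calls were seen in 41 (7.82%, against 20.9% of all regions), and as many of each in 184 (35.1%, against 35.6%). The small number of control-only regions rested on single libraries: it was 5 without control replicate 3 and 30 without senescent replicate 2, and the number of senescent-only regions was 93 without senescent replicate 2.

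The same shares were taken in the other motif classes. Regions with an E-box alone were senescent-only in 26.6% (24.7 to 28.6), control-only in 4.95% (4.09 to 5.99) and called in all 6 libraries in 26.2% (24.3 to 28.1) of cases, and each of these intervals overlapped that of composite regions. Regions with an AP-1 motif alone were senescent-only in 25.9% (23.5 to 28.6), control-only in 15.8% (13.8 to 18.1) and called in all 6 libraries in 8.27% (6.80 to 10.0) of cases. For the control-only share and for the share called in all 6 libraries, the intervals of regions with an AP-1 motif alone lay apart from those of composite regions.

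**Figure D4:**
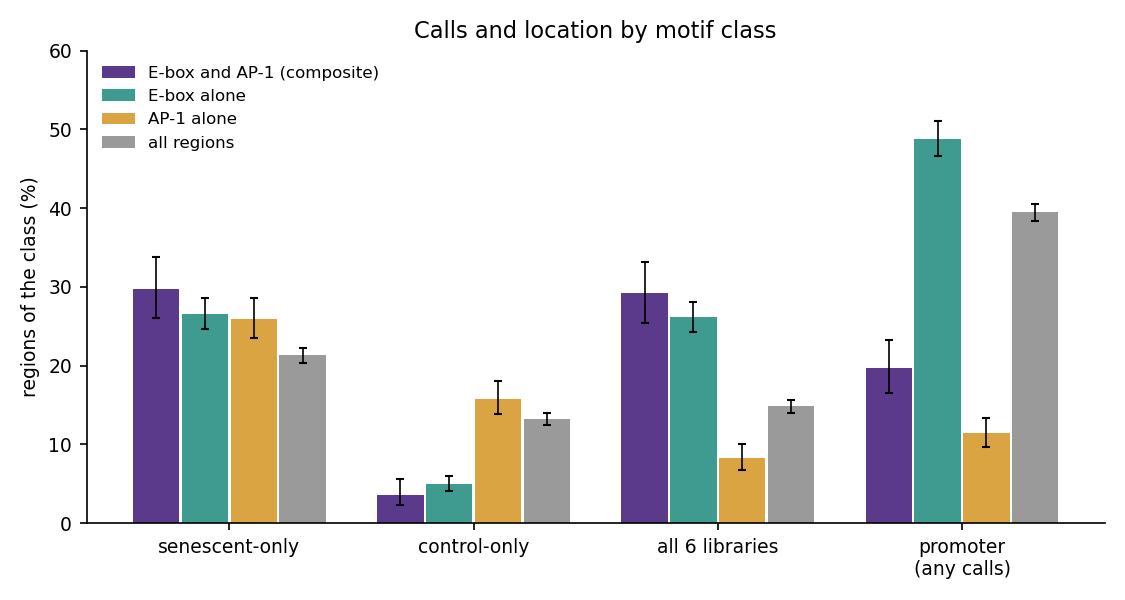
Percent of regions of each motif class (y axis) that were senescent-only, control-only, called in all 6 libraries or at a promoter (x axis). Bars are shares of the class and error bars 95% Wilson intervals; composite regions sat near the E-box-alone class in their calls (3.63% and 4.95% control-only) and nearer to the AP-1-alone class in their promoter share (19.7% and 11.4%, against 48.8% for the E-box alone).

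In location, composite regions were nearer to regions with an AP-1 motif alone. A promoter held 103 of 524 (19.7%, 16.5 to 23.3), against 48.8% (46.7 to 51.02) of regions with an E-box alone and 11.4% (9.71 to 13.4) of regions with an AP-1 motif alone. Introns of protein-coding genes held 42.7% of composite regions, and 51.9% lay outside protein-coding genes. The median distance to a start site was 17880 bp, where it was 1122 bp for the E-box alone and 21235 bp for the AP-1 motif alone. Of the 103 promoter regions, 43 were called in all 6 libraries, 22 were senescent-only and 0 were control-only (0 of 103 allows a share of up to 2.91%, at 3 counts). All 19 control-only regions were thus distal. Control-only calls were also rare at promoters with an E-box alone (0.507%, 0.217 to 1.18) and at all promoter regions (3.40%), and the senescent-only share was 21.4% for composite promoters, 21.5% for those with an E-box alone and 18.5% for all. The share called in all 6 libraries was 41.7% (32.7 to 51.4) for composite promoters, 30.1% (27.3 to 33.1) for those with an E-box alone and 16.7% for all. Promoter motifs were less common near composite regions than near the E-box alone: the NF-Y motif lay within 100 bp of the centre in 8.40% (6.31 to 11.1) against 15.5% (14.0 to 17.1), and the ETS motif in 4.01% (2.64 to 6.05) against 8.07% (6.96 to 9.34). The TEAD motif GGAATG, of the YAP pathway, lay there in 16.6% of composite regions (13.7 to 20.0), as in 16.6% of all regions.

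Fused elements lay at promoters in 14 of 34 regions (41.2%, 26.4 to 57.8), against 21 of 151 with a gap of 0 to 50 bp (13.9%, 9.28 to 20.3), 10.2% (6.08 to 16.7) with a gap of 51 to 100 bp and 25.9% (20.5 to 32.2) with a wider one. The interval of the fused form lay apart from those of the first 2 classes and overlapped that of the last. Of the 34 regions, 8 were called in all 6 libraries, 9 were senescent-only and 1 was control-only. The gap also differed with calls, with a median of 70.5 bp in senescent-only, 100 bp in control-only and 99 bp in regions called in all 6 libraries. Region width moved with it, since the median width was 336.5 bp in senescent-only and 774 bp in regions called in all 6 libraries. Within widths of 300 to under 600 bp the median gaps were 73 bp (91 senescent-only regions) and 75.5 bp (34 regions called in all 6 libraries).

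Within each library's list, the median rank of composite regions was better than that of regions with a single kind of motif. Peaks of each list were ranked by score, and the rank was given as percent of the list, where a low value is a strong peak. The median rank of composite regions was 27.0%, 24.96% and 18.1% in control and 31.7%, 19.4% and 26.2% in senescent libraries. Regions with an E-box alone stood at 33.7%, 33.1%, 22.5%, 35.6%, 20.7% and 32.3% in the same order, and those with an AP-1 motif alone at 54.8%, 55.5%, 35.8%, 56.0%, 43.2% and 55.4%. Composite regions stood higher in 6 of 6 libraries in both comparisons. The difference from the E-box alone was −5.09 percentage points (SD 2.43, n = 6 libraries, exact two-sided sign-flip permutation p = 0.03125, the smallest possible, and 0.0625 after Benjamini-Hochberg adjustment over 4 tests). The difference from the AP-1 motif alone was −25.6 percentage points (SD 4.70, n = 6 libraries, exact sign-flip permutation p = 0.03125, adjusted p = 0.0625), so neither passed 0.05 after adjustment. The 6 differences share the same regions and are not independent samples of regions.

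Width moved with this result, with a median of 467 bp in composite regions, 424 bp in regions with an E-box alone and 342 bp in those with an AP-1 motif alone. Among regions of 300 to under 600 bp the differences were −3.53 percentage points from the E-box alone (exact sign-flip permutation p = 0.0625) and −14.6 from the AP-1 motif alone (p = 0.03125). When each motif had to lie within 100 bp of the best peak's centre, the difference from the E-box alone turned to 0.54 percentage points (exact sign-flip permutation p = 0.6875), while that from the AP-1 motif alone was −21.5 (p = 0.03125). The 2 groups of libraries had similar median ranks for composite regions (control 23.4% ± 4.65, senescent 25.8% ± 6.16, SD, n = 3 each, exact permutation p = 0.6). Each median covered only the regions called in that library (221 to 348 in control and 428 to 483 in senescent libraries). The groups were thus compared over different regions, which cannot show that binding was similar.

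**Figure D5:**
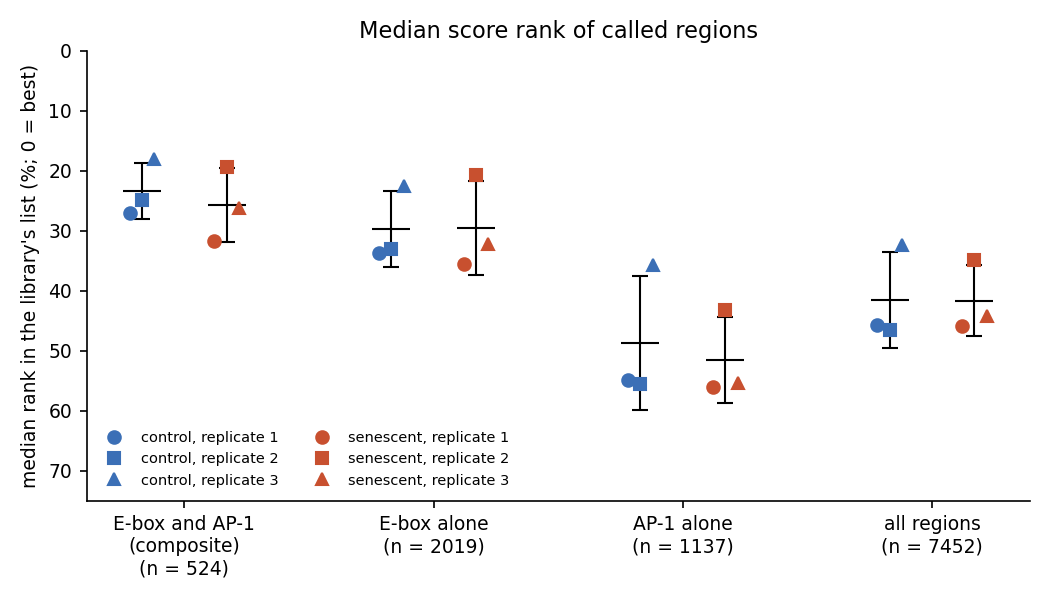
Median rank of called regions in each library's list (y axis, percent of the list, with strong peaks at the top) by motif class. Symbols are single libraries and bars the mean ± SD of 3 libraries; composite regions sat at 18.1 to 31.7% and regions with an AP-1 motif alone at 35.8 to 56.0%.

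Of the 8 composite regions with the best mean rank that were called in all 6 libraries, 4 lay nearest to clock genes, with Nr1d1 first. The region that spanned the start of Nr1d1, which encodes the clock repressor REV-ERBα (chr11:98772311-98776356), ranked 10, 9 and 11 in control and 9, 8 and 6 in senescent lists. Bhlhe41 and Bhlhe40 encode the clock repressors DEC2 and DEC1. The region at 9357 bp from the Bhlhe41 start site ranked 23, 17 and 15 in control and 11, 10 and 10 in senescent lists. The region at −662 bp from Bhlhe40 ranked 35, 37.5 and 37 in control and 55, 50 and 44 in senescent lists. For Cry2, the cryptochrome that represses CLOCK and BMAL1, an intronic region at 10382 bp ranked 24, 19 and 25 in control and 15, 14 and 15 in senescent lists. The nearest E-box and AP-1 motif were 76, 593, 274 and 1079 bp apart for Nr1d1, Bhlhe41, Bhlhe40 and Cry2, of which the last 3 lay above the upper quartile of all composite regions. These 3 regions held 1 AP-1 motif each, and spanned chr6:145855066-145856811, chr6:108658912-108660836 and chr2:92422490-92425358. All 4 regions were wider than the median of composite regions (467 bp), and a wide region can hold both motifs far apart. In Bhlhe41, Bhlhe40 and Cry2 the ranks of the 2 groups did not overlap, but as percent of the list they did (0.24 to 0.86% in control and 0.14 to 0.36% in senescent lists for Cry2), so the order of the groups depended on the scale. Where overlap between groups is stated below, the scale is named, and the lists give no peak height that could be compared between libraries. The share of all composite regions without overlap between groups is not given here, so such a lack at a named region is a description.

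The other regions among these 8 lay nearest to Ap5s1, Efcab10, Pomc and Tspan4. The Ap5s1 region, at −5694 bp, ranked 13 to 17 in every list, and the Efcab10 region, at −14508 bp, ranked 15 to 34. The Pomc region with 10 E-boxes ranked 38, 44 and 49 in control and 16, 13 and 14 in senescent lists, and the groups overlapped neither by rank nor as percent of the list (0.46 to 1.36% and 0.13 to 0.38%). The Tspan4 region stood at the start site of this tetraspanin gene, at 27 bp, with a pair 83 bp apart, and ranked 27 to 47.

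Of the 26 clock and clock output genes listed, 4 were nearest to a composite region (Bhlhe40, Bhlhe41, Cry2 and Nr1d1) and 18 to any region called in 2 or more libraries. For all 21840 protein-coding genes these shares were 2.30% (502 genes) and 22.5%. In each of the other lists below, the share with any such region was also above that of all genes. It ran from 41.0% for secreted factors of senescence to 80% for senescence and the p53 pathway, so these lists were not rich in composite regions alone. The lists of genes were chosen with earlier results of these data known, and nearness to a start site does not show that a gene is regulated from the region.

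Among genes of AP-1 itself, 3 of 19 had a composite region, and those of Fosb and Fosl1 were called in 3 senescent and 0 control libraries. Fosb and Fosl1 (FRA1) encode FOS-family subunits. The Fosb region lay at −6948 bp, had its pair 90 bp apart and ranked 2310, 2289 and 1835.5 in the senescent lists. The Fosl1 region lay in an intron at 1259 bp, had its pair 64 bp apart and ranked 2798, 1594 and 2856. Atf3, a stress-induced bZIP factor, had a region with 4 E-boxes at −6600 bp that was called in all 6 libraries and ranked 1762.5, 3220.5 and 4617.5 in control and 1699, 1703.5 and 1355 in senescent lists, and the groups overlapped neither by rank nor as percent of the list (43.6 to 96.2% and 17.4 to 40.3%).

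Of 27 genes of the MAPK pathway list, 3 had a composite region. Map2k3, a kinase upstream of p38, had a region at −972 bp called in all 6 libraries, which ranked 828 to 1494.5 in control and 440 to 996.5 in senescent lists, with overlap by rank and as percent of the list. Gdnf, a growth factor that signals through RET, had a region called in all 6 libraries at 120885 bp, in an intron of Wdr70. The region near Lif, a cytokine of the interleukin-6 family, lay at 32248 bp and was called in 2 senescent and 0 control libraries, at ranks 6610 and 2820. Map3k13, which was not on the list, had a senescent-only intronic region at 9503 bp, in which the pair shown above stood 10 bp apart.

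Of 20 genes of senescence and the p53 pathway, 5 had a composite region. Glb1 encodes the lysosomal beta-galactosidase whose activity is stained in senescent cells. Its promoter region, with the fused element near the start site (region at −54 bp), was called in all 6 libraries and ranked 1094, 790 and 8008 in control and 536.5, 911.5 and 681.5 in senescent lists. Control replicate 3 had the weakest place. The groups overlapped by rank but not as percent of the list (23.6 to 75.5% in control and 9.30 to 13.5% in senescent lists). Gadd45b, a stress-response gene, had a region in an intron of Gng7, at 25387 bp, that ranked 2089.5, 589.5 and 506 in control and 340.5, 347 and 196 in senescent lists. The groups did not overlap by rank but did as percent of the list (4.77 to 74.8% and 3.54 to 8.07%). Gadd45g had a pair of regions over 120 kb downstream: the first was called in 1 control and 3 senescent libraries and the second, with 3 AP-1 motifs and a gap of 11 bp, in 3 senescent and 0 control libraries. Kdm6b, which encodes a demethylase of histone H3 lysine 27, had a region at −29796 bp, in an intron of Dnah2, that was called in 3 senescent and 0 control libraries at ranks 1084.5, 2430.5 and 888. Ccng1, a p53 target, had a region at −35179 bp that was called in all 6 libraries.

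Of 39 secreted factors of senescence, 4 had a composite region and 16 had any region called in 2 or more libraries. None of the 4 was control-only, where 3.63% of all composite regions were. Angptl4, which encodes a secreted inhibitor of lipoprotein lipase, had a region in a coding exon that was called in 1 control and 3 senescent libraries. Inhba, the activin A subunit, had a region with the same calls, which lay at 747097 bp and is a distant assignment. Timp3, an inhibitor of matrix metalloproteases, had an intronic region called in all 6 libraries at ranks 611.5, 1476 and 3610.5 in control and 2248.5, 4676 and 3446.5 in senescent lists. These overlapped by rank but not as percent of the list, where the control lists had the better places (21.9 to 44.1% in control and 47.7 to 68.2% in senescent lists). Of 25 genes of apoptosis and survival, Bcl2l1, which encodes BCL-XL, had the 1 composite region of the list. It lay in an intron, and ranked 416, 666 and 370 in control and 107, 110.5 and 115 in senescent lists, so the groups overlapped neither by rank nor as percent of the list (3.49 to 19.9% and 1.13 to 2.54%).

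Among 19 glucocorticoid-induced genes 4 had a composite region, and all samples had received dexamethasone. Klf9 had a promoter region at −245 bp that was called in all 6 libraries and ranked 465.5 to 4417 in control and 423 to 593 in senescent lists, which overlapped by rank but not as percent of the list (13.9 to 50.04% and 4.92 to 11.7%). Sgk1 had a region at 6112 bp called in 3 senescent and 0 control libraries, and the regions of Cebpb and Angptl4 were called in 1 control and 3 senescent libraries. Among 28 matrix genes of fibroblasts 3 had a composite region: Col12a1 (1 control and 2 senescent calls), Col5a1 (2 senescent and 0 control calls) and Thbs2 with a region on either side. The upstream Thbs2 region, at −36652 bp, held a fused element and was called in 1 library of each group.

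The best-ranked senescent-only regions were mostly distal. The first lay at 514 bp from a start site of Cpeb1, a regulator of mRNA polyadenylation, with 3 E-boxes, and ranked 255, 177 and 255. It was followed by regions nearest to Apba2 (ranks 500, 605 and 641.5, with a gap of 3 bp), Hoxb9 (571.5, 593.5 and 711), Ripply2 (577.5, 1017.5 and 741) and Rbpj (783, 1092.5 and 582), the last being the DNA-binding factor of Notch signalling. Those of Pnoc, Clec2g and Map3k13 had mean ranks of 14.5%, 14.5% and 15.9%. All 8 were called in 3 senescent and 0 control libraries.

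Control-only regions were few and all distal. The best-ranked lay in introns at 76341 bp of Enox1 (ranks 296, 440.5 and 450) and at 84016 bp of Cracr2a (317.5, 360 and 1268.5), and Cracr2a held a further composite region that was called in all 6 libraries. Those nearest to Sept9, Mbnl1, Glis3 and Opcml were intronic too and called in 3 control libraries, and those nearest to 4930558K02Rik and Boc were called in 2. The Pak3 region, which held the fused element shown above, ranked 1942.5, 2704.5 and 1397.

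Regions with fused elements had a wide span of ranks. The strongest lay in an intron of Fam53b (ranks 288, 123 and 177.5 in control and 179, 234 and 243.5 in senescent lists) and at the promoter of Ypel5, at −122 bp (154.5, 103 and 91 in control and 528, 172.5 and 260.5 in senescent lists). The groups overlapped on both scales for Fam53b, and for Ypel5 as percent of the list but not by rank. Hps1, which encodes a subunit of a complex that forms lysosome-related organelles, carried its fused element at the start site and ranked 498, 392.5 and 4001.5 in control and 229, 401 and 563 in senescent lists, with overlap by rank but not as percent of the list (11.7 to 37.7% and 4.09 to 11.1%). Pfdn2, a prefoldin chaperone subunit, ranked 2611, 1781.5 and 6894.5 in control and 1096, 744 and 453 in senescent lists, and the groups overlapped on neither scale (53.2 to 93.5% and 7.59 to 25.97% of the list). The Slc2a12 region with 5 fused elements was not called in control replicate 1, ranked 2672.5 and 6464 in the other 2 control lists and 402, 286 and 335.5 in senescent lists, and where it was called the groups overlapped on neither scale (60.98 and 79.8% against 2.92 to 9.53% of the list). At the weak end, the regions of Ccnyl1 (73.0%), Swap70 (74.9%), Sla (75.9%) and 1110059E24Rik (77.5%) had the highest mean ranks, as percent of the list. Of the fused elements at promoters, those of Acta2, which encodes smooth muscle actin, and of En1 were called in 2 control and 2 senescent libraries and in 2 senescent and 0 control libraries.

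Pairs with a gap of 0 to 10 bp numbered 27 and included strong regions at or near Dvl2, a Wnt signalling protein (at −57 bp, ranks 55 to 120), Map3k21 (ranks 84 to 143.5), Dync1h1 (ranks 122 to 272.5), Tlr5 (140 to 609.5) and the promoter of Xpot (163 to 704.5), all called in all 6 libraries. The region near Wipf1 ranked 2013, 1214.5 and 777 in control and 168, 92 and 95 in senescent lists, and the groups overlapped on neither scale (7.33 to 72.1% and 0.94 to 3.98% of the list). Of the 61 regions with a gap of at most 10 bp, 17 were senescent-only, 19 were called in all 6 libraries and 2 were control-only (Pak3 and Gm21897). For all 524 composite regions these shares were 29.8%, 29.2% and 3.63%, and for all 7452 regions 21.3%, 14.8% and 13.2%. The counts are a description and show nothing particular to close pairs.

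Several composite regions near a single gene were rare. Of 502 genes with a composite region, 20 had 2 or more, and Arid5b was among those with 3. Just outside the rule, 93 regions held both motifs but were called in 1 library, 43 of them in senescent replicate 2 and 26 in control replicate 3, which had the longest lists. Their best rank had a median of 60.1% and their width a median of 181 bp, against 47.2% and 265 bp for the 89 composite regions called in exactly 2 libraries.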

How the data were processed

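BMAL1-ChIP-seq libraries of control and senescent MAFs (n = 3 each) were made by tagmentation on the beads, after fixation in 1% formaldehyde for 10 min. The labels and the study's methods name different suppliers of the BMAL1 antibody. The authors mapped paired reads to mm10 with the Burrows-Wheeler Aligner, removed duplicates with Picard, and called peaks for each library on its own with MACS2 (HiChIP pipeline; FDR of 1% or below). The MACS2 version and any use of the input are not given in the sources used here. The deposited peak score was taken to be a −log10 q-value, inferred from the lowest score of each list (2.02 to 2.12). It is not normalized between libraries and served for ranks within a list, with tied peaks sharing a mean rank. Per the file headers the 6 lists shared 1 sequencing lane.

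Peaks were merged at 1 bp of overlap. Motifs were exact matches on both strands of GRCm38, so weaker variants were left out. A gap is the number of bases between the nearest pair, and −2 stands for 2 shared bases. Start sites and gene parts came from the protein-coding part of GENCODE's basic annotation (GRCm38). Values per library were compared by exact permutation (20 arrangements) and within-library differences by exact sign flips (64 arrangements). The comparison of the share of composite regions called was planned as a test and is given without a p, because the calls chose the members. It was still counted among the 4 tests of the Benjamini-Hochberg adjustment. Regions named were those with a pair at most 10 bp apart, the 8 best by mean rank in each call group, those nearest to a gene of 8 lists, and the 3 with most motifs, of which the text gives a part. The members and the lists were chosen with earlier results of these data known. Alternatives were another merging overlap, score and list-length limits, leaving out each library, regions called in 3 or more libraries, motifs near the centre, autosomes and X, another promoter distance, wider motif patterns and replicate pairing. Scripts ran in Python 3.11.15 with numpy 2.4.6 and scipy 1.17.1 and were tested on simulated data. The study's read-based DiffBind comparison could not be repeated on peak lists. A few items among the regions named by this rule are not reported here.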

Additional observations from a re-analysis of the deposited data

How the results depend on the processing

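Of 129 alternative values of 10 results, 97 kept their direction and side of the threshold or stayed within the limits of change. Among the 97 were all 14 alternatives of the share of composite regions called and all 11 of the share of peaks with both motifs. For both results the smallest possible exact permutation p was 0.1 or more, above the threshold of 0.05. These alternatives could change in direction only, which none did, so they say nothing on the side of the threshold. With motifs within 100 bp of the peak centre, 248 regions were composite, 103 were senescent-only, 6 control-only and 46 called in all 6 libraries, the median gap was 41 bp, the promoter share 13.7%, and the rank difference from the E-box alone reversed to 0.54 percentage points. The cause was not tested. With the peaks above the median score, 95 regions were called in all libraries, the promoter share was 23.2% and the rank difference from the E-box alone was −1.80. Equal peak numbers gave a promoter share of 23.4%. Requiring 3 or more libraries gave 95 senescent-only and 9 control-only regions and a promoter share of 21.8%, and a promoter distance of 3000 bp gave 27.9%. Among regions of 300 to under 600 bp, an alternative added after seeing the data, the rank difference from the E-box alone was −3.53.

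Leaving out each library gave 93 to 229 senescent-only and 5 to 30 control-only regions, promoter shares of 18.5 to 20.9%, rank differences of −5.40 to −4.46 from the E-box alone and −25.6 to −23.3 from the AP-1 motif alone. With 5 libraries the smallest possible exact sign-flip permutation p is 0.0625, so the lost calls there say nothing on stability.

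The groups share replicate numbers, but the labels do not say that a number marks a shared animal or batch. With the replicate block the differences (34.7 percentage points of composite regions called and 2.86 of peaks with both motifs) are the same by construction. The smallest exact p that 3 pairs allow is 0.25, so this alternative says nothing on stability. Without reads, depth and binding strength could not be separated, and short lists may miss weak regions.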
